A study of Mus musculus with 16 samples.

Results

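A set of 8 members of the complement system was followed across the cerebral cortex of AAV-injected mice; AAV, adeno-associated virus, is a vector used to deliver genes to cells. They were chosen by gene symbol: C3, C4b, C3ar1, C5ar1, C1ra, C1s1, Serping1 and Cfb. These are 8 of the 55359 mouse genes in the deposited table, each present once. The 16 bulk RNA sequencing libraries fell into 4 groups of 4, named after the injected construct. ATG-GGC11 carried a short GGC repeat, ATG-GGC100 and TAG-GGC100 a long one, and ATG-GGN100dCT a long stretch of mixed glycine codons, with GGN standing for any of them. As codons, ATG starts translation and TAG stops it. All 4 groups received a virus, so none is an uninjected cortex. The series asked which transcripts change with polyG, the glycine chain read from such repeats, which is linked to neuronal intranuclear inclusion disease. For the promoter and serotype of the virus, the meaning of dCT, and the strain, sex, age and time after injection, nothing is given in the sources used here.

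Complement is a cascade of secreted proteins that marks surfaces for removal. In its classical branch, C1q binds a target and carries the proteases C1r and C1s. C1s cuts C4 and C2 into an enzyme that cleaves C3. The alternative branch builds a C3-cleaving enzyme from factor B, the product of Cfb. Cleaved C3 leaves C3b on the surface and releases the peptide C3a, read by the receptor C3ar1; C5a, released further down, is read by C5ar1. Serping1 encodes the C1 inhibitor, which blocks C1r and C1s. In the brain, C3 and C4 are made largely by glia and take part in the removal of synapses by microglia, the resident phagocytes.

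Library totals ran from 12838296 to 19130232 counts. Of the 8 members 7 had enough counts to be tested among 17737 genes; Cfb did not. All groups were compared with edgeR's quasi-likelihood test, and a gene counted as called when its p, adjusted over all tested genes by the Benjamini-Hochberg method, was under 0.05. Levels are given as FPKM, the gene's count scaled to its exonic length and to the library total. Whether each library is its own animal is not labelled; the p-values therefore rest on the spread between these samples, which may be technical. The construct rows of the table differed in level too: 35.1 to 69.4 CPM (counts scaled to the library total) for ATG-GGC11 in its own libraries, and 0.991 to 2.26 CPM for ATG-GGC100, where the ATG-GGC11 row stood at a like 0.933 to 2.467 CPM. The own rows of TAG-GGC100 and ATG-GGN100dCT, which overlapped, stood at 10.5 to 15.1 and 8.65 to 35 CPM. Against ATG-GGC11 or ATG-GGC100, repeat length, start codon and glycine codons cannot be told apart from construct level, as far as those rows show it. Markers of neurons, astrocytes and oligodendrocytes were above 0 in every group. Bulk RNA does not tell a change in the number of cells of a type from a change in RNA per cell.

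C3, the central protein of the cascade, (ENSMUSG00000024164; chromosome 17, 57510970 to 57535136, minus strand) is placed, as are all members, by the coordinates of the deposited table, which names no genome build. Its RNA was scarce in the libraries of the short repeat, at 0.12, 0.02, 0.07 and 0.14 FPKM, and in TAG-GGC100, at 0.08, 0.19, 0.28 and 0.04 FPKM. In ATG-GGC100 it stood at 0.49, 0.91, 0.54 and 0.7 FPKM, and in ATG-GGN100dCT at 0.45, 0.54, 0.43 and 0.8 FPKM. Every library of the latter pair of groups lay above every library of the former pair. C3 rose 7.67-fold from ATG-GGC11 to ATG-GGC100 (log2 fold change 2.94 ± 0.45, SE, n = 4 in each group; edgeR adjusted p = 0.000877). From ATG-GGC11 to ATG-GGN100dCT it rose by 2.68 ± 0.46 (edgeR adjusted p = 0.00289). Between ATG-GGC100 and ATG-GGN100dCT the log2 difference was 0.26 ± 0.35, with a 95% interval of -0.43 to 0.95 (edgeR adjusted p = 0.758). Transcripts of hepatocytes, which make C3, were present in ATG-GGN100dCT, as given below, and their part in its C3 level was not tested. The counts behind these values were small, 27 over the ATG-GGC11 libraries, 47 over TAG-GGC100, 176 over ATG-GGN100dCT and 228 over ATG-GGC100.

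The promoter of C3 is shown because this gene had the largest fold change of the 7 tested members in ATG-GGC100 and in ATG-GGN100dCT against the short repeat. That of C1ra is shown as the member with a match to an interferon element. The sequences are RefSeq's for GRCm38.p6 and cover 250 bases before to 50 after the start of the gene; 5 of the 8 members had an entry, C3, C3ar1, C5ar1, C1ra and C1s1. C3 lies at chr17:57228087-57228386 and C1ra at chr6:124512371-124512670 in that build, on the minus and the plus strand. The coordinates are not those of the deposited table. Capitals mark matches on either strand to TTCNNNGAA (the GAS element of interferon-responsive genes), the ISRE core (GAAA, any 2 bases, GAAA, bound by interferon-activated factors) or TTGCNNAA (an element of C/EBP factors, chosen after the C3 promoter had been read).
C3: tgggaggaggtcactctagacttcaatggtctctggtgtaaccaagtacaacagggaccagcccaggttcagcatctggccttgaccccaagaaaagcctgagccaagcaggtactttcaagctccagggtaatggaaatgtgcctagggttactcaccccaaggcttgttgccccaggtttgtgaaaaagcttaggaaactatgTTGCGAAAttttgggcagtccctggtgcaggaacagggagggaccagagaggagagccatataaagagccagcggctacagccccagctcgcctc
C1ra: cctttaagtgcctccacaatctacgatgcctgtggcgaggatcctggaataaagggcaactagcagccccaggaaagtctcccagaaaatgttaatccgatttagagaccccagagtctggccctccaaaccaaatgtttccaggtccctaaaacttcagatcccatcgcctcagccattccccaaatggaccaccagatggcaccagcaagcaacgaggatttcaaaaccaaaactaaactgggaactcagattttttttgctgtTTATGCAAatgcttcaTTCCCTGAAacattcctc
The C3 promoter held TTGCGAAA, a C/EBP match, at -45 to -38 from the start. The C1ra promoter held TTCCCTGAA, a GAS match, at 33 to 41, and a C/EBP match on the opposite strand at 17 to 24. One of the listed starts of C1s1 also held a C/EBP match. None of these promoters held an ISRE core. Of 32851 promoters of 300 bases in the table, 8.3% held a GAS match, 3.44% an ISRE core and 10.8% a C/EBP match. Such matches describe the letters and do not show binding.

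C4b encodes the C4 protein that C1s cuts, and was the most abundant member, with 247 to 3748 counts per library (chromosome 17, 34947354 to 34962856, minus strand). Its levels were 4.31, 3.82, 5.4 and 3.38 FPKM in ATG-GGC11 and 3.35, 3.91, 5.24 and 3.68 FPKM in TAG-GGC100. They were 20.29, 32.4, 36.07 and 34.67 FPKM in ATG-GGC100 and 8.93, 7.98, 9.54 and 21.01 FPKM in ATG-GGN100dCT. The groups formed 3 steps: ATG-GGC11 and TAG-GGC100 overlapped, ATG-GGN100dCT lay above both, and ATG-GGC100 lay highest, except that ATG-GGN100dCT replicate 4 reached above ATG-GGC100 replicate 1. C4b rose 7.05-fold in ATG-GGC100 against ATG-GGC11 (log2 2.82 ± 0.31, edgeR adjusted p = 0.000261). It rose 2.7-fold in ATG-GGN100dCT (1.43 ± 0.31, edgeR adjusted p = 0.0187), a call lost with only the 8 libraries compared (adjusted p = 0.0638) and without ATG-GGC11 replicate 2 (adjusted p = 0.056). The direct difference between ATG-GGC100 and ATG-GGN100dCT was 1.39 ± 0.29 on the log2 scale, with an edgeR adjusted p = 0.0293. That call was lost, at an adjusted p of up to 0.0942, without any 1 of ATG-GGC100 replicates 2, 3 and 4 or ATG-GGN100dCT replicates 1 and 3, and at 0.146 with only the 8 libraries compared. Without ATG-GGN100dCT replicate 4 it was 1.8.

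Reads of C4b can be shared with C4a, a near-copy on the same chromosome (35028069 to 35042440, minus strand). In GENCODE M21 the longest transcripts, 5379 and 5371 bases, were identical at 96.1% of 5367 aligned bases. Windows of C4b found letter for letter in C4a made up 35.2% at 50 bases, 16.5% at 100 and 8.26% at 150; no source used here gives the read length. The stretch of 60 bases within the C4b reading frame with the most differences is shown to let both copies be compared, with the 13 differing bases in capitals (bases 2761 to 2820 of the C4b and 2755 to 2814 of the C4a transcript).
C4b: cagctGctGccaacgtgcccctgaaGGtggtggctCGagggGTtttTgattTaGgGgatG
C4a: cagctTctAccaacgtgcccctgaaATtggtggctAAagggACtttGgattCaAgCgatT
The C4a row did not follow C4b. It stood at 0.352 ± 0.0544 FPKM in ATG-GGC11, 0.37 ± 0.11 in ATG-GGC100, 0.518 ± 0.153 in TAG-GGC100 and 0.505 ± 0.118 in ATG-GGN100dCT (SD, n = 4), and passed the test in none of the 6 comparisons. Its log2 difference between ATG-GGC100 and ATG-GGC11 was 0.00 ± 0.26 (edgeR adjusted p = 0.999). C4a took 7.49% to 9.19% of the counts of both rows in ATG-GGC11 and 1.1% to 1.42% in ATG-GGC100. With both rows summed into 1 gene, the calls of the members were the same in all 6 comparisons.

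**Figure D1:**
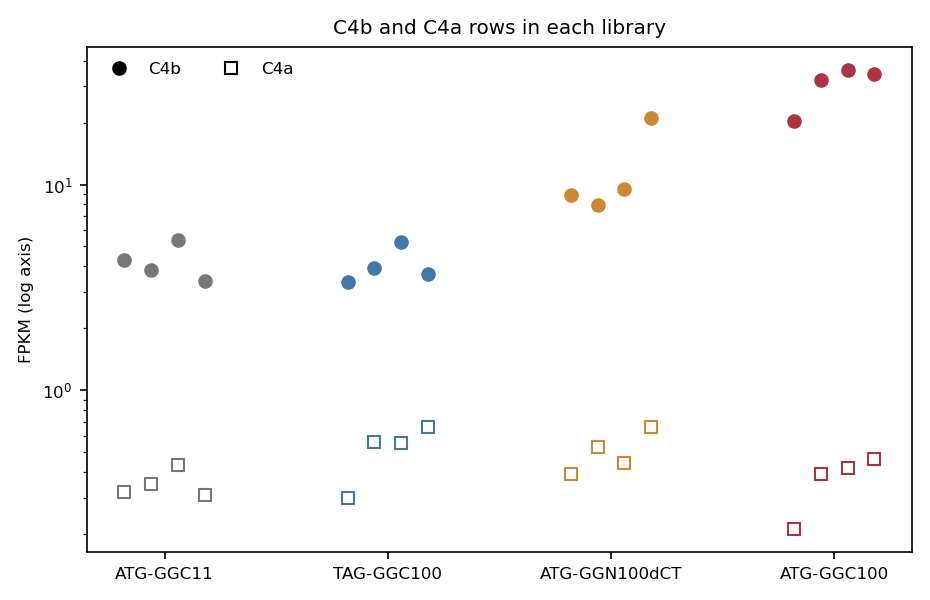
FPKM on a log axis of C4b (filled circles) and C4a (open squares) in each of the 16 libraries, by group, with the replicates of a group side by side in numerical order. C4b spans 3.35 to 36.07 FPKM, highest in ATG-GGC100, while C4a stays between 0.21 and 0.66 FPKM in every group.

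C1ra and C1s1 encode the mouse C1r and C1s proteases, of which C1s cuts C4. C1ra (chromosome 6, 124489364 to 124500402, plus strand) stood at 1.21, 1.16, 0.76 and 1.23 FPKM in ATG-GGC11 and at 0.99, 1.43, 0.96 and 1 FPKM in TAG-GGC100. It was at 2.03, 2.02, 1.86 and 2.45 FPKM in ATG-GGC100 and at 2.99, 1.25, 1.78 and 2.8 FPKM in ATG-GGN100dCT. All ATG-GGC100 libraries lay above all those of ATG-GGC11 and TAG-GGC100; in ATG-GGN100dCT replicate 2 fell within the range of TAG-GGC100 and close to the top of ATG-GGC11. C1ra rose by 0.9 ± 0.23 on the log2 scale in ATG-GGC100 against ATG-GGC11 (edgeR adjusted p = 0.0339), a call lost without any 1 of these 8 libraries (adjusted p up to 0.107). Against TAG-GGC100 it rose by 0.88 ± 0.23 (edgeR adjusted p = 0.0254), lost without ATG-GGC100 replicate 2 or 4 or TAG-GGC100 replicate 1, 3 or 4 (adjusted p up to 0.0683). In ATG-GGN100dCT against ATG-GGC11 it rose by 0.98 ± 0.23 (edgeR adjusted p = 0.0184; 0.0614 with only the 8 libraries compared).

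C1s1, next to C1ra on chromosome 6 (124507304 to 124519318, minus strand), was lower throughout. It measured 0.62, 0.32, 0.43 and 0.4 FPKM in ATG-GGC11, 0.53, 0.44, 0.61 and 0.41 FPKM in TAG-GGC100. In ATG-GGC100 the values were 0.48, 1.13, 0.91 and 0.83 FPKM, and in ATG-GGN100dCT 1.1, 0.59, 0.92 and 1.8 FPKM. In each of the latter groups 1 library, ATG-GGC100 replicate 1 and ATG-GGN100dCT replicate 2, lay within the range of ATG-GGC11. C1s1 rose in ATG-GGN100dCT against ATG-GGC11 by 1.27 ± 0.31 (log2, edgeR adjusted p = 0.0204; 0.0525 with only the 8 libraries compared and 0.0895 without ATG-GGN100dCT replicate 4). In ATG-GGC100 the difference of 0.88 ± 0.31 did not pass (edgeR adjusted p = 0.142). The direct difference between these constructs, -0.39 ± 0.29 for ATG-GGC100 against ATG-GGN100dCT, did not pass either (edgeR adjusted p = 0.525), so C1s1 was not shown to differ between them.

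Serping1 (chromosome 2, 84595731 to 84605788, minus strand) encodes the inhibitor of both proteases. It stood at 2.11, 3.08, 2.61 and 1.54 FPKM in ATG-GGC11, and at 2.21, 2.26, 2.66 and 1.59 FPKM in TAG-GGC100. The ATG-GGC100 libraries had 4.31, 6.01, 4.03 and 4.5 FPKM, and the ATG-GGN100dCT libraries 2.19, 2.79, 3.08 and 3.59 FPKM. ATG-GGC100 lay above all other libraries, while ATG-GGN100dCT overlapped ATG-GGC11. Serping1 rose 1.93-fold in ATG-GGC100 against ATG-GGC11 (log2 0.95 ± 0.19, edgeR adjusted p = 0.00757) and 2.1-fold against TAG-GGC100 (1.07 ± 0.2, edgeR adjusted p = 0.00246). Against ATG-GGC11, ATG-GGN100dCT differed by 0.26 ± 0.2, with a 95% interval of -0.14 to 0.65 (edgeR adjusted p = 0.459). The direct difference between ATG-GGC100 and ATG-GGN100dCT, 0.7 ± 0.19, did not pass (edgeR adjusted p = 0.0639), but passed with DESeq2 (adjusted p = 0.0242) and with no filter on low counts (adjusted p = 0.013).

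Per exonic length, the inhibitor was more abundant than either protease in most libraries. The ratio of Serping1 to C1s1 FPKM had a median of 4.96 in ATG-GGC11, 5.37 in ATG-GGC100, 4.27 in TAG-GGC100 and 2.67 in ATG-GGN100dCT. The ranges overlapped, from 3.4 to 9.62 in ATG-GGC11 and 1.99 to 4.73 in ATG-GGN100dCT. Serping1 over C1ra had medians between 1.51 in ATG-GGN100dCT and 2.2 in ATG-GGC11, with a lowest value of 0.732 in 1 library of ATG-GGN100dCT. These ratios were not tested.

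Cfb, the protease of the alternative branch (chromosome 17, 35075350 to 35081494, minus strand), was barely detected. It had 24 counts over the ATG-GGC11 libraries, 27 over ATG-GGC100, 35 over TAG-GGC100 and 37 over ATG-GGN100dCT. The levels were 0.04 to 0.19, 0.08 to 0.21, 0.13 to 0.32 and 0.19 to 0.25 FPKM in that order, and ATG-GGC100 overlapped ATG-GGC11. With no filter on low counts, Cfb passed in none of the 6 comparisons; ATG-GGC100 against ATG-GGC11 gave a log2 fold change of 0.08 ± 0.5 (edgeR adjusted p = 1). That standard error is larger than for any tested member in the same comparison. Gm20547, a gene on the same strand that overlaps Cfb, is listed at 0 in every library. No source used here says how reads in exons shared by overlapping genes were counted.

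**Figure D2:**
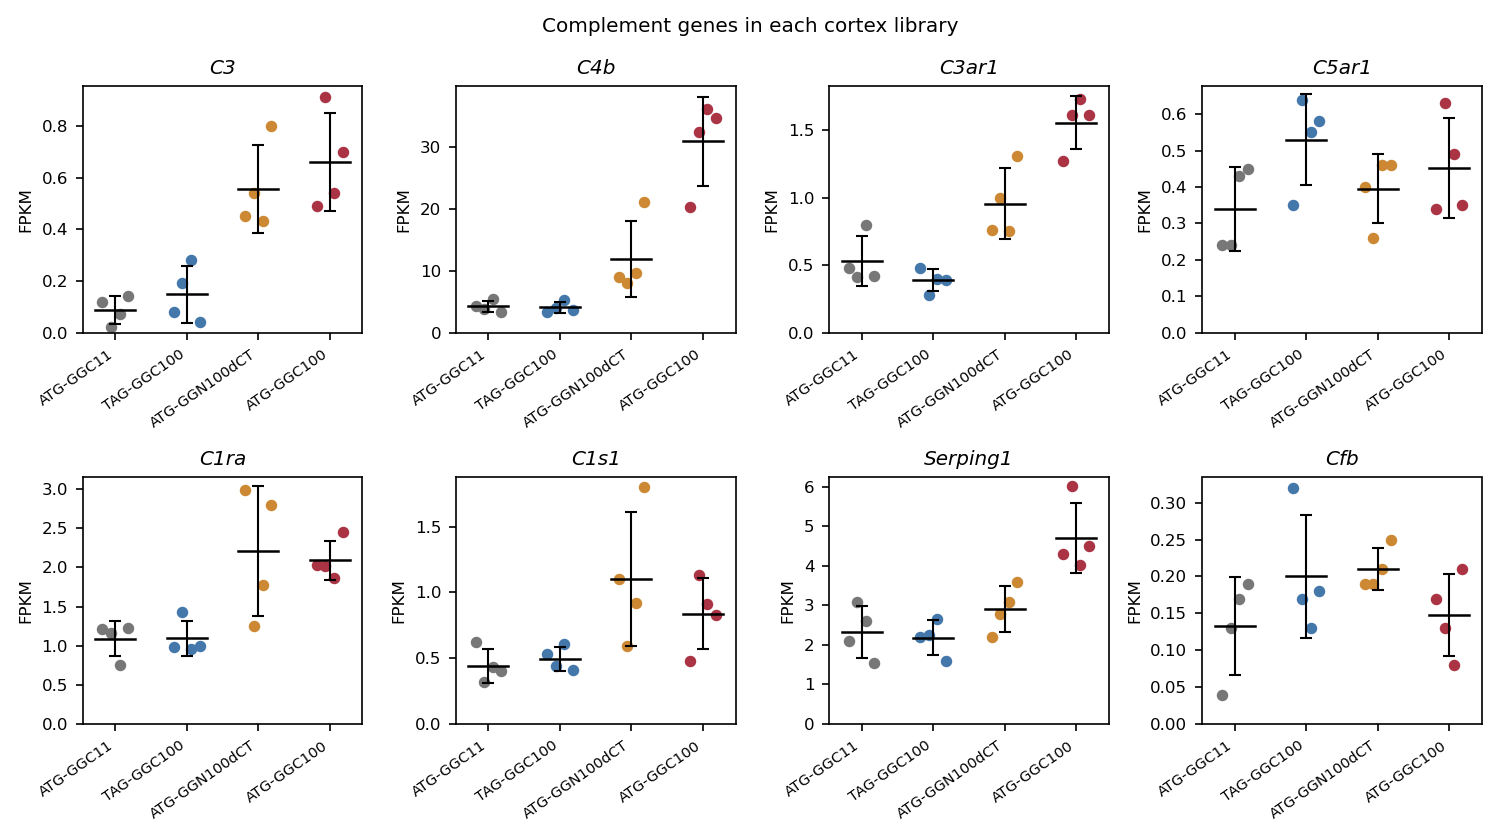
FPKM of each of the 8 complement genes in the 16 cortex libraries; points are libraries in order of replicate, horizontal lines the group means and bars the SD (n = 4), on linear axes from 0. For C3, C4b and Serping1 the 4 ATG-GGC100 points lie above all points of ATG-GGC11 and TAG-GGC100, and for C5ar1 and Cfb the groups overlap.

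The receptors differed from each other. C3ar1 (chromosome 6, 122824097 to 122833120, minus strand), the C3a receptor found on microglia and other myeloid cells, had 0.48, 0.41, 0.8 and 0.42 FPKM in ATG-GGC11 and 0.48, 0.28, 0.4 and 0.39 FPKM in TAG-GGC100. It had 1.27, 1.61, 1.73 and 1.61 FPKM in ATG-GGC100 and 0.76, 1, 0.75 and 1.31 FPKM in ATG-GGN100dCT. ATG-GGC100 lay above every ATG-GGC11 and TAG-GGC100 library, and ATG-GGN100dCT overlapped ATG-GGC11 because of ATG-GGC11 replicate 3. C3ar1 rose 2.85-fold in ATG-GGC100 against ATG-GGC11 (log2 1.51 ± 0.22, edgeR adjusted p = 0.000409). In ATG-GGN100dCT it rose by 0.8 ± 0.23 (edgeR adjusted p = 0.0409), a call lost with only the 8 libraries compared (adjusted p = 0.0916), on log2(FPKM + 1) with limma (adjusted p = 0.0516), and without any 1 of 5 libraries (adjusted p up to 0.145). ATG-GGC100 against ATG-GGN100dCT gave 0.71 ± 0.21 (edgeR adjusted p = 0.0836); it passed with DESeq2 (adjusted p = 0.0435) and with no filter (adjusted p = 0.0353).

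C5ar1, the C5a receptor (chromosome 7, 15980668 to 15993465, minus strand), did not follow C3ar1. It measured 0.24, 0.24, 0.43 and 0.45 FPKM in ATG-GGC11, and 0.34, 0.63, 0.49 and 0.35 FPKM in ATG-GGC100. TAG-GGC100 had 0.35, 0.64, 0.55 and 0.58 FPKM and ATG-GGN100dCT 0.4, 0.26, 0.46 and 0.46 FPKM. All groups overlapped, and C5ar1 passed in none of the 6 comparisons, with edgeR adjusted p-values from 0.351 to 0.795. For ATG-GGC100 against ATG-GGC11 the 95% interval of the log2 fold change ran from -0.23 to 0.99, so a rise of up to 0.99 cannot be told from none at 10 to 27 counts per library. The ratio of C3ar1 to C5ar1 FPKM lay between 2.56 and 4.6 in ATG-GGC100, 0.933 and 2 in ATG-GGC11, 0.438 and 1.37 in TAG-GGC100, and 1.63 and 3.85 in ATG-GGN100dCT. The ATG-GGC100 ratios were above all those of ATG-GGC11 and TAG-GGC100.

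Of 8 microglial markers 4 rose in ATG-GGC100 against ATG-GGC11, so the receptors were set beside such genes. In each library the mean log2 CPM of 5 microglial genes (Cx3cr1, P2ry12, Tmem119, Csf1r and Aif1) was subtracted from the log2 CPM of the receptor. That mean was 4.83 ± 0.1 in ATG-GGC11, 5.26 ± 0.13 in ATG-GGC100, 4.7 ± 0.1 in TAG-GGC100 and 4.78 ± 0.21 in ATG-GGN100dCT (SD, n = 4). C3ar1 minus this reference ran from -3.88 to -3.10 in ATG-GGC11 and from -2.66 to -2.40 in ATG-GGC100, with no overlap. In ATG-GGN100dCT it ran from -3.12 to -2.43, and in TAG-GGC100 from -4.14 to -3.65. C3ar1 was thus higher in ATG-GGC100 relative to these microglial genes too. C5ar1 minus the reference ran from -5.20 to -4.45 in ATG-GGC11 and from -5.25 to -4.42 in ATG-GGC100, an overlapping range. No test was run on these differences.

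**Figure D3:**
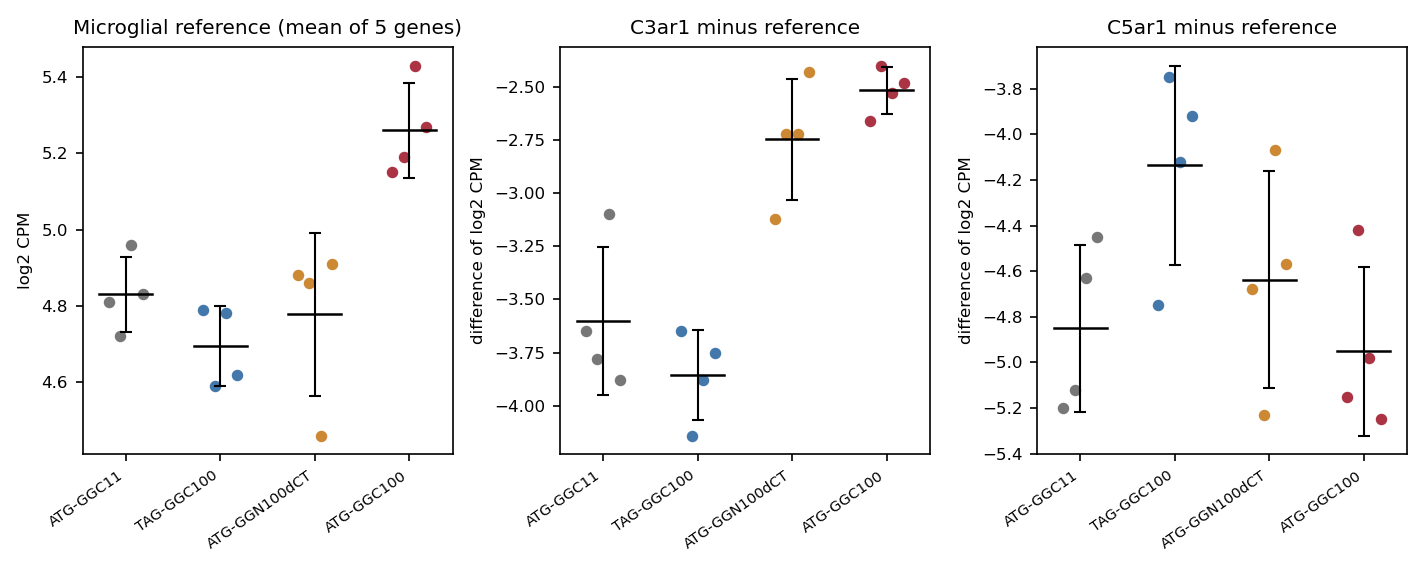
Left, mean log2 CPM of 5 microglial genes in each library; middle and right, log2 CPM of C3ar1 and C5ar1 minus that mean (points are libraries, lines means, bars SD, n = 4; the axes do not start at 0). The C3ar1 difference is -2.66 to -2.40 in ATG-GGC100 and -3.88 to -3.10 in ATG-GGC11, whereas the C5ar1 ranges of these groups overlap.

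Against the short repeat, ATG-GGC100 was higher in 5 of the 7 tested members, C3, C4b, C3ar1, Serping1 and C1ra, and lower in none; over all tested genes 2.2% were called higher. The same 5 did not overlap between the 8 libraries, against 5.9% of all genes higher without overlap. The median log2 fold change was 0.95 over the 7 members and 0.00 over all tested genes. Leaving out any 1 of the 16 libraries left 4 or 5 members called.

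TAG-GGC100, which has the long repeat with TAG, had no member called against ATG-GGC11, where 0.00564% of all tested genes were called in either direction, a single gene. DESeq2 called no member either. In the edgeR fit, 1219 of all tested genes (6.87%) had an unadjusted p under 0.05, with C5ar1 among them (edgeR unadjusted p = 0.0473). The largest member differences were 0.81 ± 0.54 for C3 (95% interval -0.25 to 1.87) and 0.65 ± 0.31 for C5ar1 (0.05 to 1.26), with edgeR adjusted p = 0.853 and 0.722. C4b differed by -0.07 ± 0.32 and C1ra by 0.02 ± 0.24. For C4b the interval of -0.69 to 0.54 lies below its rise in ATG-GGC100. The median over the members was 0.02.

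ATG-GGN100dCT was higher than ATG-GGC11 in 5 of the 7, C3, C4b, C1ra, C1s1 and C3ar1, against 3.17% of all genes called higher. On scaled CPM, used for all counts of overlap, the libraries of C3 and C4b did not overlap, against 6.74% of all genes. The median over the members was 0.98, and 0.01 over all tested genes. The count fell to 1, C3, with only the 8 libraries compared. It was 2 without ATG-GGN100dCT replicate 4 (C3 and C4b) or ATG-GGC11 replicate 2 (C3 and C1ra), and 3 without ATG-GGC11 replicate 3.

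Both constructs were also set against TAG-GGC100. ATG-GGC100 was higher in C3, C4b, C3ar1, C1ra and Serping1, 5 of 7 with no overlap in each, where 4.05% of all genes were called higher and 7.76% were higher without overlap. C3ar1 had the smallest adjusted p of the members here, 3.46e-05, with a log2 fold change of 1.97 ± 0.23 by edgeR, and C4b rose by 2.89 ± 0.31. ATG-GGN100dCT was higher in C3, C4b, C3ar1, C1ra and C1s1 (4.3% of all genes), of which C3, C4b and C3ar1 did not overlap (6.45% of all genes). C1s1 rose by 1.1 ± 0.31 there (edgeR adjusted p = 0.0322) but did not pass with limma on log2(FPKM + 1) or log2(FPKM + 0.1) (adjusted p = 0.0573 and 0.0575) or with a replicate block (adjusted p = 0.0585). That count was 2 with only the 8 libraries compared (C3 and C3ar1) and without ATG-GGN100dCT replicate 4 (C3ar1 and C4b), and 3 without ATG-GGN100dCT replicate 1 or TAG-GGC100 replicate 4. Comparisons with a group in common share its libraries, so their calls are not independent.

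The direct comparison of ATG-GGC100 with ATG-GGN100dCT called C4b alone among the members, where 1.19% of all genes were called higher. C3ar1 and Serping1 were higher in ATG-GGC100 without overlap (4.58% of all genes) but did not pass. DESeq2, and edgeR with no filter, called all 3. C4b was also lost without certain libraries, as given above, leaving 0 members.

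**Figure D4:**
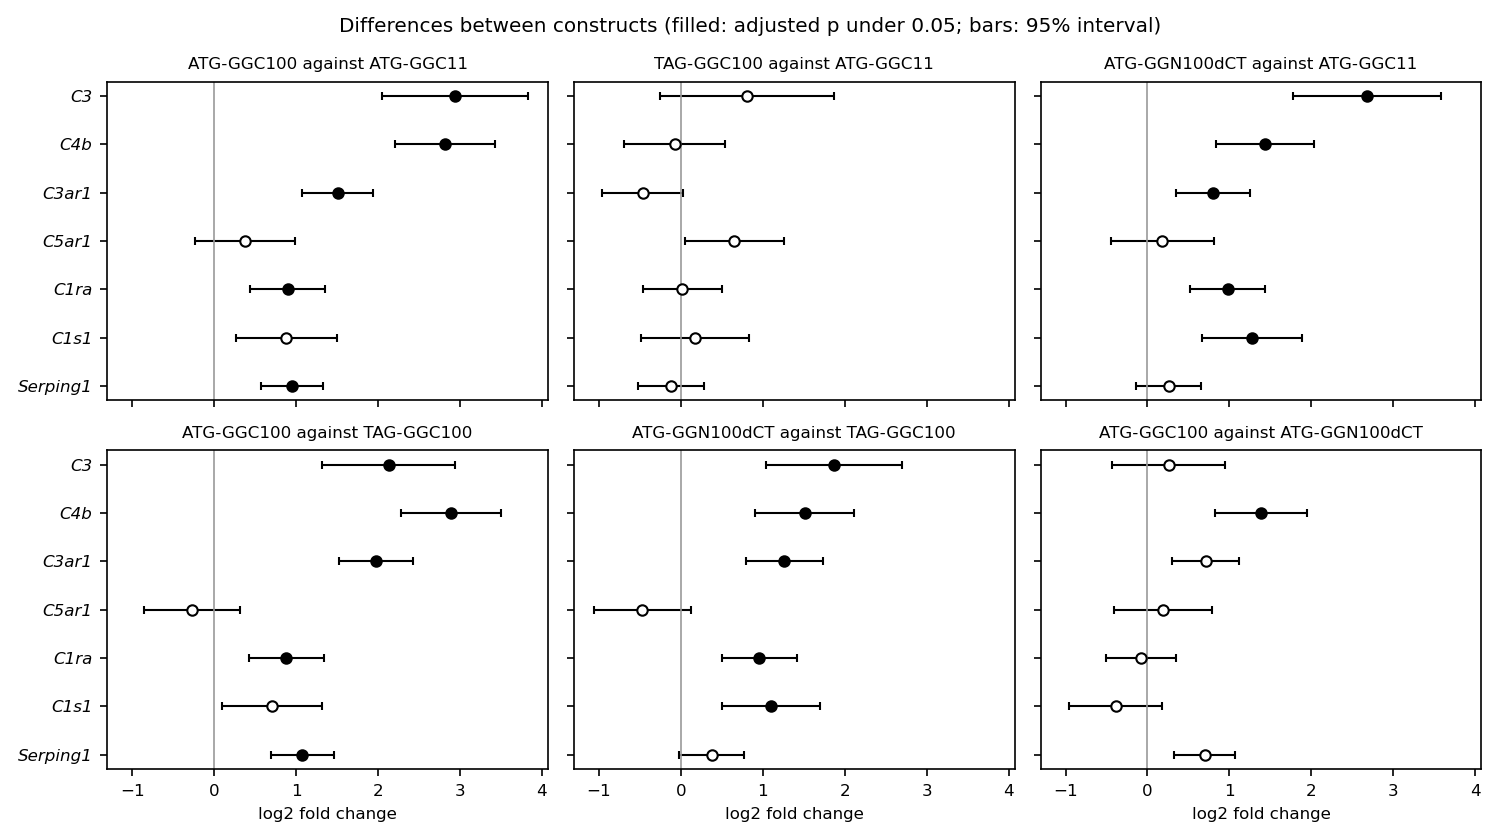
Log2 fold change (x axis, points) with its 95% interval (bars) of the 7 tested members in the 6 comparisons between groups of 4 libraries; filled points have an edgeR adjusted p under 0.05. C3 and C4b stand at 2.94 and 2.82 in ATG-GGC100 against ATG-GGC11, all points are open in TAG-GGC100 against ATG-GGC11, and C4b alone is filled in ATG-GGC100 against ATG-GGN100dCT.

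The rest of the pathway was followed over 53 further complement genes, of which 52 were in the table and 35 were tested. In ATG-GGC100 against ATG-GGC11, 7 of the 35 rose and none fell, where 2.2% of all tested genes were called higher and 1.3% lower. The median log2 fold change was 0.21, and 0.00 over all tested genes. Among them were the C1q genes C1qa, C1qb and C1qc (1.24, 1.11 and 0.97), the C3b receptor subunits Itgax and Itgb2 (3.72 ± 0.45 and 1.3 ± 0.15), and Clu. Clu, clusterin, which blocks the terminal complex, went from 223 ± 16.3 to 315 ± 37 FPKM (0.46 ± 0.08, edgeR adjusted p = 0.00173). Itgam, which pairs with Itgb2 to form complement receptor 3, stood at 2.28 ± 0.521 against 1.74 ± 0.121 FPKM and did not pass.

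In ATG-GGN100dCT against ATG-GGC11, 3 of the 35 rose and none fell, where 3.17% of all tested genes were called higher and 3.49% lower. The median was 0.17, and 0.01 over all tested genes. They were Itgb2 (0.57 ± 0.16), Srpx2, a neuronal C1q inhibitor (1.2 ± 0.32), and Sez6, a neuronal protein with complement-control domains (0.41 ± 0.12). No C1q gene passed, and each was higher in ATG-GGC100 than in ATG-GGN100dCT, C1qa by 0.96 ± 0.13 (edgeR adjusted p = 0.000538). Clu was higher there as well, by 0.47 ± 0.08. Against TAG-GGC100, 8 rose and 1 fell in ATG-GGC100 (4.05% and 3.39% of all genes). Among those that rose were C2, the partner of C4 in the C3-cleaving enzyme (1.02 ± 0.3), and C1rl, a C1r-like protease gene (1.7 ± 0.39). C1rl was near the floor, with 13 counts over TAG-GGC100, 48 over ATG-GGC100 and 34 over ATG-GGC11. It did not pass in ATG-GGC100 against ATG-GGC11 (0.40 ± 0.33, edgeR adjusted p = 0.594). The gene that fell was Cfp, properdin, a stabilizer of the alternative branch, at 5.33 ± 1.25 against 9.43 ± 3.21 FPKM (-0.86 ± 0.24, edgeR adjusted p = 0.039). In ATG-GGN100dCT against TAG-GGC100, where 4.3% of all genes were called higher, 4 rose: Itgax, Srpx2, Sez6 and Cd46. Itgax had just 46 counts over ATG-GGN100dCT and 6 over TAG-GGC100. None of the 35 passed in TAG-GGC100 against ATG-GGC11.

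Of 4 genes of membrane regulators of complement, Cr1l, Cd55, Cd59a and Cd46, Cd46 alone passed a test. Cr1l, the rodent regulator Crry, stood at 1.77 ± 0.182, 1.78 ± 0.0656, 1.87 ± 0.259 and 1.7 ± 0.119 FPKM in ATG-GGC11, ATG-GGC100, TAG-GGC100 and ATG-GGN100dCT. Its 95% interval for ATG-GGC100 against ATG-GGC11 was -0.23 to 0.17 on the log2 scale. Cd55, which breaks up C3-cleaving enzymes, was at 1.26 ± 0.253 in ATG-GGC100 against 0.907 ± 0.18 FPKM in ATG-GGC11 (edgeR adjusted p = 0.158). Cd59a, the inhibitor of the terminal complex, was at 2.4 ± 0.143 against 2.03 ± 0.329 FPKM, and at 3.09 ± 0.866 FPKM in ATG-GGN100dCT (edgeR adjusted p = 0.0741). Cd46 passed in 1 of the 6 comparisons, ATG-GGN100dCT against TAG-GGC100 (0.55 ± 0.15, edgeR adjusted p = 0.0251).

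Genes outside complement were ranked by how closely their log2 CPM, centred over the 16 libraries, followed each member. The measure is the root mean square difference over 16 libraries among 14020 genes with at least 1 FPKM in a group; smaller is closer. The nearest gene to C4b was Serpina3n, an astrocyte serpin (0.305, where C4b itself varied by 1.23), followed by the filament gene Gfap (0.415) and the protease inhibitor gene A2m (0.431). Serpina3n was also nearest to C3 (0.62), with Gpnmb and A2m next. C3ar1 was followed most closely by Lgals3bp (0.236), the macrophage gene Cd68 (0.255) and AU020206 (0.271). Among the members, C1ra and C1s1 were the closest pair (0.406), and C3 and C5ar1 the farthest (1.33). C5ar1, C1ra, C1s1 and Serping1 varied less themselves (0.393 to 0.605), and their nearest genes were 1700007K13Rik (0.244), Gm47202 (0.281), Parp3 (0.242) and Mxra8 (0.228).

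Marker genes of other cells were measured beside the members. The 8 microglial markers, of which none passed in ATG-GGN100dCT against ATG-GGC11, summed to 425 to 517 CPM in ATG-GGC100, 303 to 370 in ATG-GGC11 and 255 to 354 in ATG-GGN100dCT. Of 8 astrocyte markers 1 rose in ATG-GGC100 against ATG-GGC11, and in ATG-GGN100dCT 1 rose and 4 fell. Markers of neutrophils and monocytes, which carry C5ar1, summed to 0.315 to 2.31 CPM in ATG-GGC11 and 0.933 to 1.21 CPM in ATG-GGC100. They summed to 0.762 to 3.33 CPM in TAG-GGC100 and 2.53 to 3.38 CPM in ATG-GGN100dCT. Of the 3 tested, 1 was higher in ATG-GGN100dCT than in ATG-GGC11, and 2 were lower in ATG-GGC100 than in ATG-GGN100dCT. Of 7 markers of meningeal fibroblasts, cells that also make C1r, C1s and C1 inhibitor, 2 rose in ATG-GGC100, Col1a2 and Lum. Their sum was 90.4 to 154 CPM in ATG-GGC100 and 35 to 99.4 CPM in ATG-GGC11, and none of the 7 was at 0 in a group. In ATG-GGN100dCT, where C1ra and C1s1 rose, it was 52.8 to 85.9 CPM, within the range of ATG-GGC11. Of 6 border macrophage markers 1 rose in ATG-GGC100, Mrc1, with sums of 16.6 to 18.7 against 6.93 to 11.4 CPM. The part of these cells in the changes of the members was not tested.

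Hepatocytes make C3, C4, C1r, C1s and C1 inhibitor, and transcripts of hepatocyte marker genes were present in ATG-GGN100dCT. Of 12 hepatocyte markers 11 were tested and 10 were higher there than in ATG-GGC11; they summed to 43.8 to 51 CPM in ATG-GGN100dCT and to 0.724 to 2.1 CPM in the other 12 libraries. In ATG-GGC11, ATG-GGC100 and TAG-GGC100, 5, 5 and 6 of the 12 markers had no count. The sum in ATG-GGC100 was 0.765 to 1.57 CPM. Within ATG-GGN100dCT the sum was lowest, 43.8 CPM, in replicate 4, the library with the most C4b, C3, C3ar1 and C1s1. C1ra was highest in replicate 1, at 2.99 FPKM, against 2.8 FPKM in replicate 4. Of the 9 tested among 10 interferon-response genes, 6 rose in ATG-GGC100 and 3 in ATG-GGN100dCT against ATG-GGC11. Their sums were 60.7 to 77.5, 33.6 to 69.4 and 28.1 to 36.5 CPM in these groups. Within ATG-GGN100dCT this sum was highest in replicate 1, at 69.4 CPM, against 48.5 CPM in replicate 4. The part of these transcripts in the rise of C3, C4b, C1ra and C1s1 in ATG-GGN100dCT was not tested.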

How the data were processed

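RNA of 16 cortex libraries was sequenced after Trizol extraction, poly(A) selection from total RNA and random priming, per the labels' protocols; no strand-marking step is named. The submitters' processing notes name FastQC 0.10.1, cutadapt 1.9.1 and the builds GRCm39 and mm10; no source used here names the aligner or counter. The authors deposited raw counts per gene beside FPKM; their FPKM were recovered from counts, exonic lengths and totals within 0.005. The 4 construct rows, at most 0.00714% of a library, were left out of library sizes and tests.

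Groups came from the code in each title. Genes were kept by filterByExpr (minimum count 10), scaled by TMM and tested in R 4.3.3 with edgeR 4.0.16 (glmQLFit, robust; glmQLFTest, two-sided), all 16 libraries in 1 fit with the group as the term, with Benjamini-Hochberg adjustment within each comparison. The common biological coefficient of variation was 0.112. Intervals are the estimate with normal 95% limits, unadjusted. Alternatives were median-ratio or library-total scaling, no filter, DESeq2 1.42.0, limma 3.58.1 on log2 FPKM with a pseudocount of 1 or 0.1, a fit of just the 8 libraries compared, a replicate block, C4a and C4b summed, and leaving out each library. The analysis was tested on simulated counts. Libraries of a group differed beyond sampling noise (chi-square per degree of freedom 4.83 to 22.9 over 24 pairs). The 8 members, the lists and the tests were chosen with earlier results of these data known. Named beside the members were, per comparison, up to 6 called genes of the further complement list with the largest change, 6 regulators in any case, and the 3 genes closest to a member. Some genes of these lists are not reported here, and the microglial mean uses 5 genes for this reason. Protein sequences were not used here.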

Additional observations from a re-analysis of the deposited data

Results flagged for a closer look

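In the 32 sets of 4 libraries formed by 8 genes and 4 groups, the highest or lowest FPKM stood apart in 3, where chance gives about 1 in 20. C4b in ATG-GGN100dCT replicate 4, at 21.01 FPKM, lay far above the next library at 9.54 FPKM. C1ra in ATG-GGC11 replicate 3, at 0.76 FPKM, lay below the next at 1.16 FPKM. C1ra in TAG-GGC100 replicate 2, at 1.43 FPKM, lay above the next at 1 FPKM.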

How the results depend on the processing

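Median-ratio and library-total scaling, and C4a summed with C4b, changed no call of a member. No called log2 fold change reversed under an alternative. With only the 8 libraries compared, members called were 1 (main 5) for ATG-GGN100dCT against ATG-GGC11, 2 (main 5) against TAG-GGC100 and 0 (main 1) for ATG-GGC100 against ATG-GGN100dCT; genes called were 703 (main 1181), 634 (main 1542) and 181 (main 363), and 22 (main 1) for TAG-GGC100 against ATG-GGC11. The cause was not tested. For ATG-GGC100 against ATG-GGN100dCT, no filter and DESeq2 each called 3 members, and 556 and 695 genes. For TAG-GGC100 against ATG-GGC11, they called 22 and 42 genes.

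The replicate block called 2 genes there and moved no other count of genes past 1.5 times; it lost C3ar1 in ATG-GGN100dCT against ATG-GGC11 (log2 0.81, adjusted p = 0.0561) and C1s1 against TAG-GGC100 (1.06, adjusted p = 0.0585). The labels do not say that numbers pair libraries, and deviations of same-numbered libraries correlated at -0.206 to 0.193.

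Leaving out 1 library gave 4 to 5 members and 307 to 766 genes for ATG-GGC100 against ATG-GGC11, 0 members and 1 to 25 genes for TAG-GGC100 against ATG-GGC11, and 2 to 5 members and 386 to 1834 genes for ATG-GGN100dCT against ATG-GGC11. Against TAG-GGC100 it gave 4 to 5 members and 526 to 1655 genes for ATG-GGC100, and 2 to 5 members and 515 to 2123 genes for ATG-GGN100dCT. ATG-GGC100 against ATG-GGN100dCT ranged from 0 to 2 members and 165 to 688 genes. Depth limits Cfb, C5ar1 and C3 most, at the counts given with each.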

Other observations

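Genes of the terminal pathway and of other plasma complement proteins were at or near 0 in most libraries. C9, which forms the membrane pore, had 10 counts over the ATG-GGN100dCT libraries and 0 over each other group, and the lectin gene Mbl1 had 6 and 0. C6 had 11 counts there and at most 1 over another group, and Cfi, the protease that cuts C3b, had 12 and at most 2. Hc, the mouse C5 gene, had 13, 4, 33 and 12 counts in the ATG-GGN100dCT libraries and 13 to 25 over each other group; replicate 3 alone held most of its counts. Hepatocyte markers likewise summed to 43.8 to 51 CPM in ATG-GGN100dCT and to 0.724 to 2.1 CPM in the other groups. The part of hepatocyte transcripts in these counts was not tested. These genes were chosen after their values were seen.

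Within ATG-GGN100dCT the row of its own construct stood at 20.5, 8.65, 25.3 and 35 CPM in replicates 1 to 4, and C4b at 8.93, 7.98, 9.54 and 21.01 FPKM. The order of the libraries was the same for both. In ATG-GGC100 the own row stood at 0.991, 1.67, 2.08 and 2.26 CPM, and C4b at 20.29, 32.4, 36.07 and 34.67 FPKM. The order was the same there except for replicates 3 and 4. For TAG-GGC100 the own row was 12.7, 15.1, 10.5 and 12 CPM, with C4b at 3.35, 3.91, 5.24 and 3.68 FPKM. There replicate 3 had the lowest row and the most C4b. For ATG-GGC11 the row was 69.4, 50.2, 51.5 and 35.1 CPM, with C4b at 4.31, 3.82, 5.4 and 3.38 FPKM. Its order was the same except for replicates 1 and 3. C3, C3ar1, C1ra, C1s1 and Serping1 did not follow the order of the own row in ATG-GGN100dCT. No correlation was computed, and the pattern was noticed after the values were seen.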
